A study of Homo sapiens with 6 samples.

Results

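The genes described here build and control the cyclin B-CDK1 switch, the protein kinase step that carries a cell from G2 into mitosis. They are the mitotic cyclins CCNA2, CCNB1 and CCNB2, the kinase CDK1, its small subunits CKS1B and CKS2, the activating phosphatases CDC25B and CDC25C, and the inhibitory kinases WEE1 and PKMYT1. All 10 genes were measured, by 25 of the 44988 probe sets that name a single gene symbol in the platform's gene table; the table covers 18132 genes in all. They were chosen by name and function, with every probe set of each gene kept. The rule uses no measured value, but the choice was made with earlier results of these data known. The cells grew in RPMI medium with serum. The signals came from 3 arrays of HCT-116 cells given the compound coded AAPK and 3 arrays of HCT-116 cells given the vehicle DMSO. HCT-116 is an established human colorectal carcinoma line, described in the labels as expressing Aurora-A and PLK-1 highly, and the series title calls the compound an inhibitor of both kinases. The treatment field reads 10 µM and 48 h for all 6 samples, and 10 µM is taken as the dose of AAPK.

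CDK1 is active only when bound to a cyclin. The cyclins accumulate before mitosis and are destroyed when it ends, and the bound kinase is held inactive by phosphate groups that WEE1 and PKMYT1 add and CDC25 phosphatases remove. Active CDK1 switches its own inhibitors off and its activators on, which makes entry into mitosis abrupt, and Aurora A and PLK1 act upstream of that step. Transcripts of most of these genes rise and fall with the cell cycle, being high in G2 and mitosis. In RNA from whole cultures, a larger share of cells in G2 or mitosis and more transcript per cell cannot be told apart.

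The cyclin and CKS transcripts were higher in AAPK cells, and those of the phosphatases and the inhibitory kinases did not pass the test. Of the 10 genes, 6 were called higher and 0 lower at a limma adjusted p under 0.05, where 8.11% of all 18132 genes were called higher and 7.26% lower. Among the 4 genes that did not pass, the unadjusted p was under 0.05 for PKMYT1 only. CKS2 and CCNB1 had large changes, CCNA2, CCNB2, CKS1B and CDK1 small ones. The 3 AAPK arrays lay wholly above the 3 DMSO arrays for those same 6 genes and wholly below them for PKMYT1, while 14.9% of all genes lay wholly above and 17.1% wholly below. The median log2 change of the 10 genes was 0.20, against -0.016 for all genes. With any single array left out the count was 5 of 10, because CDK1 missed the threshold whichever array was left out (adjusted p = 0.0587 to 0.145, limma).

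**Figure D1:**
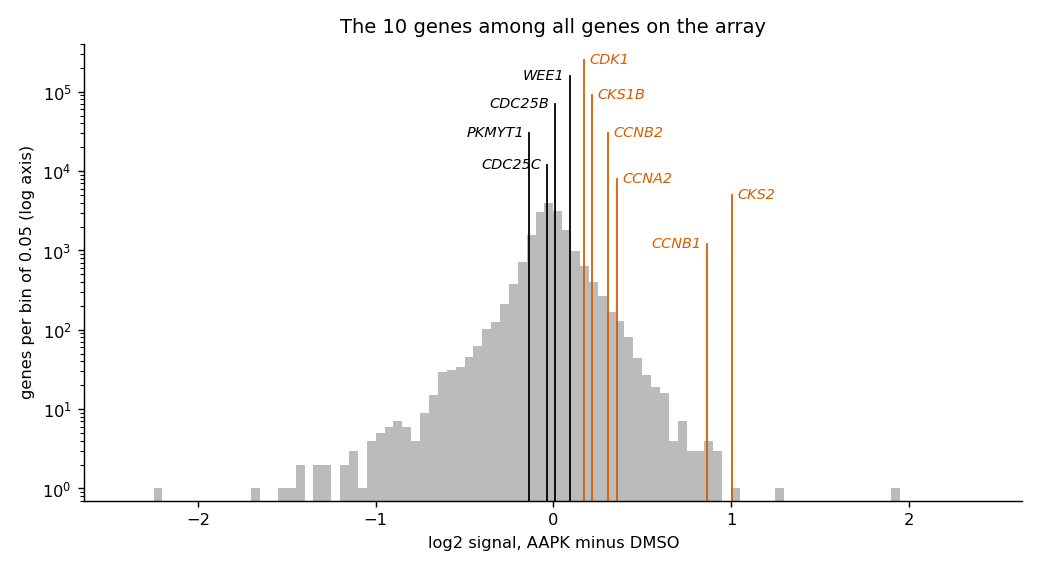
Histogram of the log2 difference in signal, AAPK minus DMSO, for all 18132 genes (x axis; bins of 0.05, y axis on a log scale). Vertical lines mark the 10 genes, orange where called higher and black where not called, and the height of a line carries no value. CKS2 at 1.004 and CCNB1 at 0.86 lie in the thin right tail, and PKMYT1 at -0.14 lies to the left of 0.

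Some facts of the arrays bear on all of these values. Array medians were 6.46 to 6.47 on AAPK arrays and 6.48 to 6.50 on DMSO arrays, so each change is measured against the bulk of the transcripts. Of the 6 control probe sets for ribosomal RNA, 3 differed between the groups in the limma fit over all probe sets, with log2 changes of 0.56, 0.51 and -0.41, and their part in the results below was not tested. The epithelial keratins KRT8 and KRT18 lay at the 99.2 and 99.5 percentiles of signal among genes, and KRT8 was called higher in AAPK cells with a log2 change of 0.17. EPCAM, an adhesion protein of most colorectal carcinoma cells, lay at the 0.9 percentile, and its 3 probe sets had group means of 3.34 to 3.45 on the log2 scale. CDH1, which encodes E-cadherin, and KRT19 lay at the 14.5 and 13.3 percentiles, and CLDN4 at the 84.9 percentile. Part of the epithelial marker list was therefore near the bottom of the scale in cells labelled HCT-116. The 8 measured blood, fibroblast and endothelial markers lay at the 3.8 to 80.3 percentiles. Of these markers 0 were called by limma (adjusted p = 0.335 to 0.954).

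Stretches of DNA around the start sites of these genes, where at hand, were searched for known recognition letters of factors that drive G2 transcripts. The CHR element (searched here as TTTGAA or TTCGAA) is read by the DREAM and MuvB complexes and the CCAAT box (CCAAT) by NF-Y. RefSeq promoter windows of GRCh38.p14, from 250 bases before the start site to 50 bases after it, were at hand for 8 of the 10 genes, in 15 windows. None was at hand for WEE1 or PKMYT1. On either strand, 6 of the 8 genes held a CHR match in at least 1 window and 8 of 8 held a CCAAT match. Among the 14425 genes on the array that had a window the shares were 17.6% and 42.4%. Genes with more windows have more room for a match, and overlapping windows can each count the same site, as for CDC25C. By window, 53.3% and 73.3% of the 15 held one, against 13.8% and 34.7% of 20403 windows of genes on the array. Windows are shown for CKS2 and CCNB1, which had the largest changes, for CKS1B and CCNB2, their close relatives with smaller ones, for CDK1, and for CDC25C, which did not pass. They run 5′ to 3′ on the strand of the gene, and capitals mark each CHR or CCAAT match on either strand.
CKS2 (chr9:89310945-89311244, plus strand): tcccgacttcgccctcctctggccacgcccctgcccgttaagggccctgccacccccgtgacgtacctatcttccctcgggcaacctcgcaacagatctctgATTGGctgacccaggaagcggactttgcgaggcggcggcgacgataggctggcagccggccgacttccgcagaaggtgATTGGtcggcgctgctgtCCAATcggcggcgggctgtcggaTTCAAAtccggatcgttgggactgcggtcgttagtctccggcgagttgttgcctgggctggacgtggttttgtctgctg
CKS1B (chr1:154974431-154974730, plus strand): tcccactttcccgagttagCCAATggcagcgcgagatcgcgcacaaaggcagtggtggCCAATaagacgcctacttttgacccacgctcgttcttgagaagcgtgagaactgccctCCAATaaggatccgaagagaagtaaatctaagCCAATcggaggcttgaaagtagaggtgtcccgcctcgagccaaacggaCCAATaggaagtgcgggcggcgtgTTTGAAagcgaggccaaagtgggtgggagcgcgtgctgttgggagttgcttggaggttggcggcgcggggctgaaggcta
CCNB1 (chr5:69166900-69167199, plus strand): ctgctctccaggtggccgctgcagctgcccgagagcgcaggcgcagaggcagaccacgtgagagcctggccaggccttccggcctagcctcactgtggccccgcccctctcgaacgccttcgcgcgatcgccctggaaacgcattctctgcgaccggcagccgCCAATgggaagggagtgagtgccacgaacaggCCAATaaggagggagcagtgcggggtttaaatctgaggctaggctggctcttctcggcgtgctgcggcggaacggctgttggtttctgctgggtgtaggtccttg
CCNB2 (chr15:59104896-59105195, plus strand): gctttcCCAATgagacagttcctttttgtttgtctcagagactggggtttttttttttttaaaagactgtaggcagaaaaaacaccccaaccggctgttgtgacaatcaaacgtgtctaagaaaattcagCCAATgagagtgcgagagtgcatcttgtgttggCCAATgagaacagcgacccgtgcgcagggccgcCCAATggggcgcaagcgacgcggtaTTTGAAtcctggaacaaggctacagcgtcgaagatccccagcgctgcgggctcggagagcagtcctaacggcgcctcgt
CDK1 (chr10:60778228-60778527, plus strand): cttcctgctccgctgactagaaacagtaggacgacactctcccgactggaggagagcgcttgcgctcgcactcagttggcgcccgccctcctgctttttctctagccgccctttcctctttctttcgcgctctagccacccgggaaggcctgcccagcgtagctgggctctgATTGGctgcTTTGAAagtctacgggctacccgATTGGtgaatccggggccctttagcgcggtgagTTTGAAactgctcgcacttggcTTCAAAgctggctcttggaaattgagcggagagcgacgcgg
CDC25C (chr5:138331755-138332054, minus strand): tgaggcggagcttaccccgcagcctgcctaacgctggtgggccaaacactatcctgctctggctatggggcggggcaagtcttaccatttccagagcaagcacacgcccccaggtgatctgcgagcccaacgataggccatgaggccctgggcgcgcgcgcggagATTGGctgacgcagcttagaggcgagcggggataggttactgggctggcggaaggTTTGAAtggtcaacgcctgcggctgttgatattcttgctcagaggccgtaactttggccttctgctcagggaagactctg

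Genes with similar matches had unlike changes. CKS2, CKS1B, CCNB2 and CDC25C each had a CHR match whose first base lay 29 or 30 bases before the start site, with CCAAT matches farther upstream. The log2 changes of these 4 genes were 1.004, 0.22, 0.31 and -0.035. The windows of CCNB1 and CCNA2 held CCAAT matches but no stretch with the CHR letters searched, and both genes rose. Only TTTGAA and TTCGAA were searched, so the lack of a match does not show that these windows lack a CHR element. The CDK1 window printed above held 3 CHR matches, and another CDK1 window, which overlaps it, held 1 more. CDC25B and CDC25C each had 4 windows, of which 1 and 2 held a CHR match. The 2 CDC25C windows overlap and hold the same match. Over the whole array, CHR and CCAAT matches occurred together in 10.1% of 1260 genes called higher, 6.25% of 1104 called lower and 7.19% of 12061 not called; no test was made of this.

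CDK1, the catalytic subunit of the switch, rose by a small amount. Its brightest probe set had log2 signals of 10.40, 10.38 and 10.50 on the AAPK arrays, against 10.28, 10.18 and 10.30 on the DMSO arrays. All 3 AAPK values lay above the highest DMSO value, by a margin smaller than the spread within either group. The log2 change was 0.17 ± 0.05 (SE, n = 3 per group; limma adjusted p = 0.0479 over genes), a 1.13-fold rise. The call was also lost with quantile normalisation (0.12, adjusted p = 0.179). Among all probe sets tested together the same probe set did not pass (adjusted p = 0.0647), whereas a dimmer one did, with a log2 change of 0.29 ± 0.05 (adjusted p = 0.00352). That probe set read 9.91, 9.93 and 9.98 in AAPK cells and 9.63, 9.62 and 9.70 in DMSO cells. The third CDK1 probe set was much dimmer, at the 25.6 percentile of signal, and its groups overlapped, with a log2 change of 0.048.

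CCNB1 encodes cyclin B1, the main partner of CDK1 at entry into mitosis. Its single probe set read 10.32, 10.38 and 10.41 in AAPK cells, against 9.56, 9.33 and 9.62 in DMSO cells. The groups were far apart, and the second DMSO replicate was the lowest. The rise was 1.82-fold, a log2 change of 0.86 ± 0.07 (SE; limma adjusted p = 3.59e-05), the 10th largest rise of 18132 genes. Leaving out an array gave 0.78 to 0.92.

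CCNB2 encodes cyclin B2, a partner of CDK1 found largely at the Golgi. It read 9.62, 9.66 and 9.53 on the AAPK arrays and 9.32, 9.25 and 9.31 on the DMSO arrays. No values overlapped, and the gap was narrower than for CCNB1. It rose 1.24-fold, a log2 change of 0.31 ± 0.05 (SE; adjusted p = 0.00204, limma).

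CCNA2 encodes cyclin A2, which binds CDK2 in S phase and CDK1 in G2. The brighter of its probe sets read 8.81, 8.76 and 8.90 in AAPK cells and 8.41, 8.41 and 8.58 in DMSO cells. The dimmer one read 8.69, 8.74 and 8.74 in AAPK cells and 8.16, 8.01 and 8.13 in DMSO cells. Both separated the groups, and the dimmer one by more. Their log2 changes were 0.36 ± 0.06 (SE; limma adjusted p = 0.00415 over probe sets) and 0.63 ± 0.05 (adjusted p = 6.31e-05). The fold for CCNA2 is therefore 1.28 on the brighter probe set and 1.54 on the dimmer one.

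The CKS proteins are small subunits that bind CDK1 and help it to phosphorylate substrates that already carry phosphate; CKS1B also serves the ubiquitin ligase that destroys p27. CKS2 read 11.23, 11.24 and 11.33 in AAPK cells, against 10.26, 10.21 and 10.31 in DMSO cells, on its single probe set. The AAPK values lay about 1 log2 unit above the DMSO values, with hardly any spread within a group. Its log2 change of 1.004 ± 0.05 (SE; adjusted p = 1.10e-06, limma) was the largest of the 10 genes and the 3rd largest rise on the array.

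CKS1B, the close relative, rose by less. Its brightest probe set read 9.69, 9.70 and 9.71 in AAPK cells and 9.46, 9.46 and 9.52 in DMSO cells. That is a 1.16-fold rise, with a log2 change of 0.22 ± 0.04 (SE; limma adjusted p = 0.00623). Its other probe sets also had every AAPK value above every DMSO value, with log2 changes of 0.15 and 0.17, but neither passed (adjusted p = 0.0963 and 0.0501 over probe sets). All 3 CKS1B probe sets carry a suffix that Affymetrix gives to sets whose probes may match transcripts of more than 1 gene. Such a suffix is also on the only WEE1 probe set, the brightest CDK1 and PKMYT1 ones, and some others of PKMYT1 and CDC25B.

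**Figure D2:**
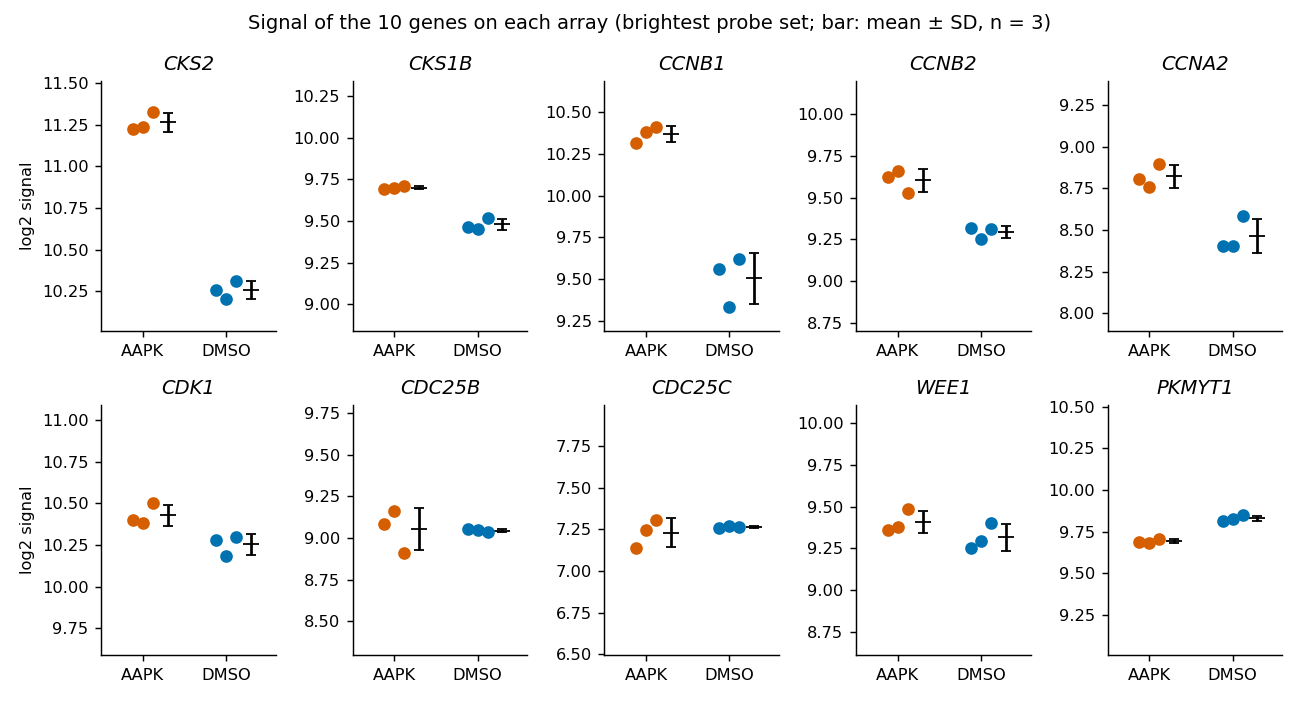
Log2 signal (y axis, the same span of 1.5 units in each panel) of the brightest probe set of each of the 10 genes on the 3 AAPK arrays (orange, left) and the 3 DMSO arrays (blue, right), with the mean ± SD beside them. CKS2 and CCNB1 show a wide gap, CDC25B, CDC25C and WEE1 overlap, and PKMYT1 is lower on all 3 AAPK arrays.

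The CDC25 phosphatases remove the inhibitory phosphates from CDK1, CDC25B early at the centrosome and CDC25C as part of the feedback in mitosis. CDC25B read 9.09, 9.16 and 8.91 in AAPK cells and 9.05, 9.05 and 9.03 in DMSO cells. The AAPK arrays were spread on both sides of the tightly grouped DMSO arrays. The log2 change was 0.0087, with a 95% interval of -0.13 to 0.15 (limma adjusted p = 0.956). None of the 5 CDC25B probe sets passed, and their log2 changes ran from 0.0046 to 0.14.

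CDC25C had the lowest signal percentile of the 10 genes, 53.5 among all genes. It read 7.14, 7.25 and 7.31 in AAPK cells and 7.26, 7.27 and 7.27 in DMSO cells. The AAPK values again straddled the DMSO values. The log2 change was -0.035 (95% interval -0.15 to 0.079; limma adjusted p = 0.732), and the other CDC25C probe set had -0.044.

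WEE1, the nuclear kinase that phosphorylates CDK1 on tyrosine, did not pass. It read 9.36, 9.38 and 9.48 in AAPK cells, against 9.25, 9.30 and 9.40 in DMSO cells. The highest DMSO value lay above the lower AAPK values. Its log2 change was 0.09 (95% interval -0.033 to 0.21; adjusted p = 0.344, limma).

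PKMYT1, the membrane-bound kinase that phosphorylates CDK1 on threonine and tyrosine, had the lowest change of the 10 genes. Its brightest probe set read 9.69, 9.68 and 9.71 in AAPK cells, against 9.82, 9.82 and 9.85 in DMSO cells. The groups did not overlap and their spreads were small. The log2 change was -0.14 ± 0.04 (SE; 95% interval -0.23 to -0.04), just short of the threshold (limma adjusted p = 0.0537). The changes on the 6 PKMYT1 probe sets were all below 0, from -0.23 to -0.09, with 5 of 6 wholly below DMSO and 0 of 6 called over probe sets. The gene was called lower under 6 of 15 alternative settings, among them averaging its 6 probe sets (-0.14, limma adjusted p = 0.0347).

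**Figure D3:**
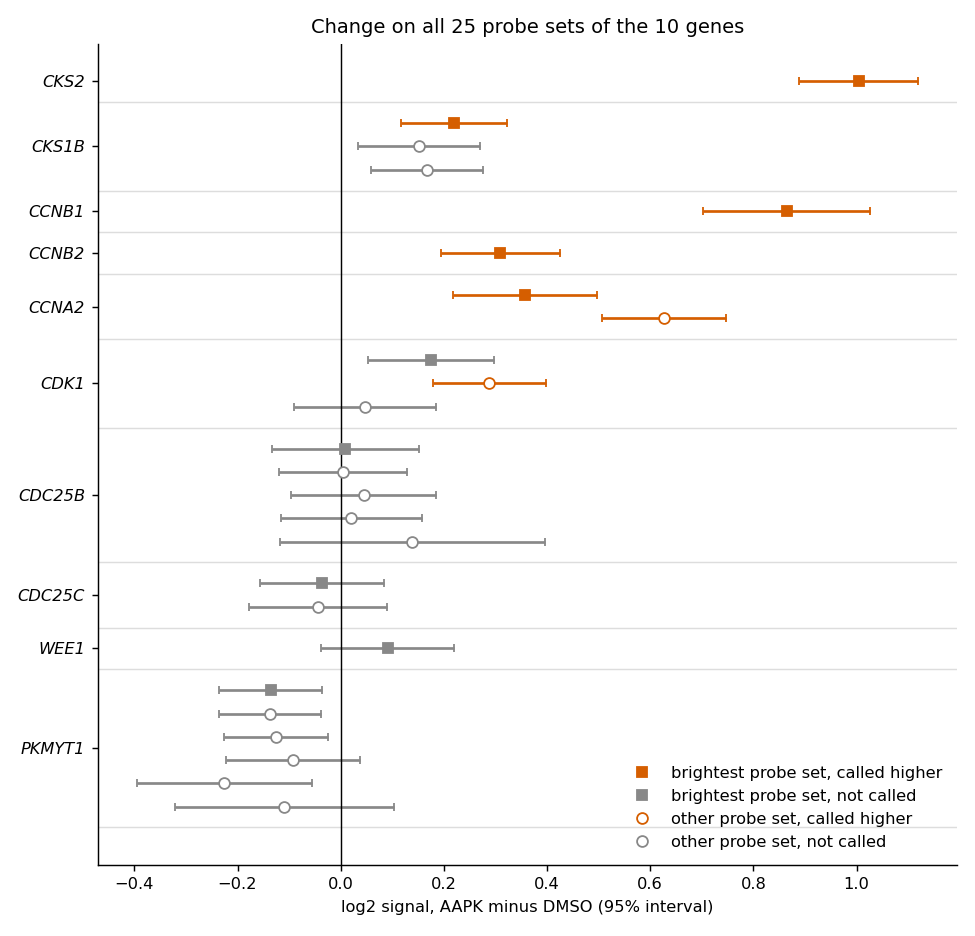
Log2 difference in signal, AAPK minus DMSO (x axis), for each of the 25 probe sets, grouped by gene, with its 95% interval; squares are the brightest probe set of a gene and open circles the others, and orange marks probe sets called higher in the fit over all probe sets. In that fit the brightest CDK1 probe set is not called, and all 6 PKMYT1 probe sets lie left of 0.

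Over all 25 probe sets, 7 were called higher and 0 lower, where 7.13% of the 44988 probe sets were called higher and 5.82% lower. The AAPK arrays lay wholly above the DMSO arrays on 10 of the 25 and wholly below on 5, which all belong to PKMYT1; the shares over all probe sets were 14.3% and 15.2%. Probe sets of a gene share its RNA and are not replicates. Every probe set of CCNA2, CCNB1, CCNB2, CKS1B and CKS2 had a change above 0. The same held for CDK1, CDC25B and WEE1, of which CDC25B and WEE1 were not called.

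Changes of related members were compared through the difference between their log2 signals on each array. CKS2 minus CKS1B was 1.53, 1.54 and 1.62 in AAPK cells and 0.80, 0.75 and 0.79 in DMSO cells, so the change of CKS2 was 0.78 ± 0.03 (SE) log2 units larger. CCNB1 minus CCNB2 was 0.69, 0.72 and 0.89 in AAPK cells and 0.24, 0.08 and 0.31 in DMSO cells, a difference of 0.55 ± 0.09. CCNB1 also changed by 0.51 ± 0.08 more than CCNA2 and by 0.69 ± 0.06 more than CDK1. Each of these 4 differences separated the arrays completely, and the level of a gene against another gene has no meaning on these arrays. Between the CCNB1 and CCNA2 probe sets with the largest spread the difference was 0.24.

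For the inhibitory kinases, WEE1 minus PKMYT1 was -0.33, -0.30 and -0.22 in AAPK cells and -0.57, -0.53 and -0.44 in DMSO cells. The difference of 0.23 ± 0.05 separated the groups although neither gene passed alone. CDC25B and CDC25C differed by 0.04 ± 0.11, within the spread of the arrays. Of the 6 pairs compared, 5 reached the exact permutation p = 0.1 (two-sided, 3 arrays against 3), the smallest that the design allows, and 0.12 after adjustment over the pairs, so no pair could pass 0.05. The p for CDC25B and CDC25C was 0.9. How often other gene pairs on the array separate completely was not counted, and several of the 6 pairs share CCNB1. On the brightest probe sets of CCNA2, CCNB2, CKS1B and CDK1 the 95% intervals of the changes overlapped. They ran from 0.22 to 0.49, 0.20 to 0.42, 0.12 to 0.32 and 0.06 to 0.29. The dimmer CCNA2 probe set had 0.51 to 0.75, above the intervals of every CCNB2, CKS1B and CDK1 probe set in the fit over probe sets. The order of these 4 genes was not tested.

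**Figure D4:**
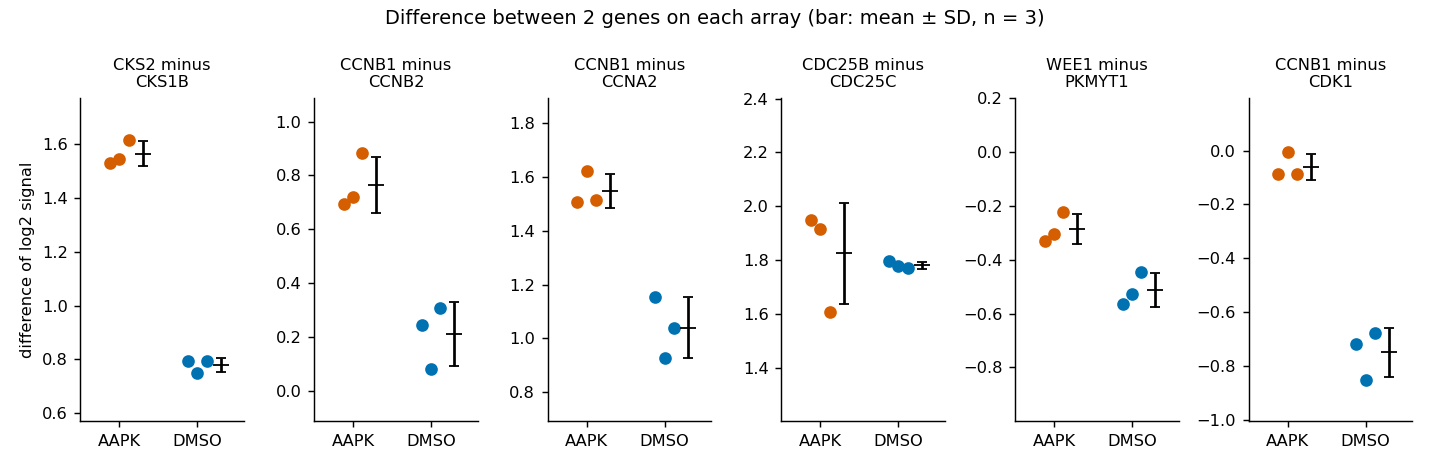
Difference in log2 signal between the genes of each pair (y axis, the same span of 1.2 units in each panel) on the 3 AAPK arrays (orange, left) and the 3 DMSO arrays (blue, right), with the mean ± SD. The arrays separate completely for every pair except CDC25B and CDC25C.

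The upstream kinases named in the series title were higher as transcripts. AURKA read 10.57, 10.60 and 10.59 in AAPK cells and 9.77, 9.80 and 9.79 in DMSO cells, a log2 change of 0.80 ± 0.04 (SE; limma adjusted p = 1.79e-06). PLK1 read 7.58, 7.62 and 7.53 in AAPK cells and 7.40, 7.38 and 7.33 in DMSO cells, a log2 change of 0.21 ± 0.05 (adjusted p = 0.0118). Over all genes, 8.11% were called higher and 7.26% lower. Of 9 measured genes for the kinases and feedback that activate CDK1, 5 rose, 1 fell and 3 did not pass, with a median of 0.20. Besides AURKA and PLK1 the genes that rose were BORA, which helps Aurora A to activate PLK1, at 0.24, CCNH, a subunit of the CDK-activating kinase, at 0.23, and ARPP19, a phosphatase inhibitor, at 0.20. MASTL, the Greatwall kinase that activates ARPP19, fell by 0.55 ± 0.06 (adjusted p = 2.06e-04).

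Most genes listed for the destruction of mitotic cyclins, a list that holds both the machinery and its inhibitors, were higher in AAPK cells. Of 19 measured, 12 rose, 1 fell and 6 did not pass, with a median log2 change of 0.23. The shares of all genes called higher and lower were 8.11% and 7.26%. CDC20, which switches on the anaphase-promoting complex in mitosis, rose by 0.88 ± 0.05 on the log2 scale (limma adjusted p = 5.00e-06), with 0.01 and 0.89 on its other probe sets. UBE2S, a ubiquitin-conjugating enzyme that extends chains for that complex, rose by 0.53 ± 0.04. Inhibitors of the complex were called in both directions. BUB1B and MAD2L1, spindle checkpoint proteins that hold the complex with CDC20 inactive, rose by 0.42 and 0.40, with 0.04 to 0.42 on the other MAD2L1 probe sets. FBXO5, which encodes the inhibitor EMI1, was the gene that fell, at -0.21.

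Against 8.11% of all genes called higher and 7.26% lower, 4 of 11 measured genes for the phosphatases that oppose CDK1 rose and 0 fell. Their median was 0.10, but 0.05 with quantile normalisation, 0.17 with the probe set of largest spread and 0.16 without AAPK replicate 3. The largest changes were those of PPP2R1B, a scaffold subunit of PP2A, at 0.28, with -0.03 to 0.48 on its other probe sets, and PPP2R2A, a regulatory subunit, at 0.25. The PPP2R2A call was lost without AAPK replicate 2 or DMSO replicate 1 (limma adjusted p = 0.0586 and 0.0723). PPP2R2B rose by 0.24, with -0.01 to 0.22 on its other probe sets, and PPP2CB by 0.17, with 0.10 and 0.13. The count was 1 to 4 when an array was left out: it fell to 2 without AAPK replicate 1, 2 or 3 and to 1 without DMSO replicate 1.

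Of 17 checkpoint genes that restrain CDC25 and CDK1, 2 were called higher and 3 lower, where 8.11% and 7.26% of all genes were. Their median was 0.05, but -0.01 after quantile normalisation and 0.02 to 0.04 without single arrays. The count of higher genes was 1 when any array except AAPK replicate 3 was left out. GADD45A, a stress protein that can bind CDK1, read 8.69, 8.87 and 8.62 in AAPK cells, against 10.23, 10.16 and 10.25 in DMSO cells. It fell by 1.49 ± 0.06 on the log2 scale (limma adjusted p = 5.91e-07), a larger change than that of any of the 10 switch genes. CDKN1B, the CDK inhibitor p27, fell by 0.27 ± 0.07 (adjusted p = 0.0202), a call lost without AAPK replicate 1, AAPK replicate 2 or DMSO replicate 3 (adjusted p = 0.0809, 0.0709 and 0.0705). YWHAH, a 14-3-3 protein, fell by 0.24. CHEK2, a checkpoint kinase, rose by 0.24 with -0.02 on its other probe set, and YWHAZ, a 14-3-3 protein, rose by 0.15.

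Regulators of G2 and mitotic transcription included 1 higher and 4 lower genes of 16 measured, where the shares of all genes were 8.11% and 7.26%. The median of the list was -0.09 and ran from -0.12 to -0.04 over the alternative settings. FOXM1, a forkhead activator of these genes, rose by 0.19 (limma adjusted p = 0.0362), with 0.06 and 0.14 on its other probe sets. E2F8 and E2F7, atypical E2F repressors, fell by 0.48 ± 0.10 and 0.40 ± 0.05. Their other probe sets had smaller changes, -0.33 and -0.19 for E2F8 and -0.15 for E2F7. LIN54, the subunit of MuvB that contacts the CHR element, and NFYC, a subunit of NF-Y, fell by 0.32 and 0.29, with -0.44 to -0.02 and -0.20 to 0.03 on their other probe sets. The rise of FOXM1 was the only one in this list and the count was 0 without AAPK replicate 1, AAPK replicate 2, DMSO replicate 1 or DMSO replicate 2.

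The list of other cyclins, CDKs and CDC25A holds mostly genes of G1 and S phase, besides the B-type cyclin CCNB3 and the germline cyclin CCNA1. Against 8.11% of all genes called higher and 7.26% lower, 2 of 11 measured rose, 2 fell and 7 did not pass. Their median was 0.01, but -0.03 with quantile normalisation, -0.07 with the probe set of largest spread and 0.12 with genes below the median signal left out, so it has no settled sign. CCNE2, cyclin E2, fell by 0.41 ± 0.06, with -0.15 on its other probe set, and CDK4, the partner of D cyclins, by 0.41 ± 0.04. CDC25A, the third phosphatase of the family, rose by 0.20 ± 0.05 (adjusted p = 0.0177, limma), with 0.03 and 0.05 on its other probe sets. CCND3, cyclin D3, rose by 0.16 with -0.12 on its other probe set. The count of higher genes was 0 or 1 without AAPK replicate 1 or 2 or DMSO replicate 1 or 2.

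**Figure D5:**
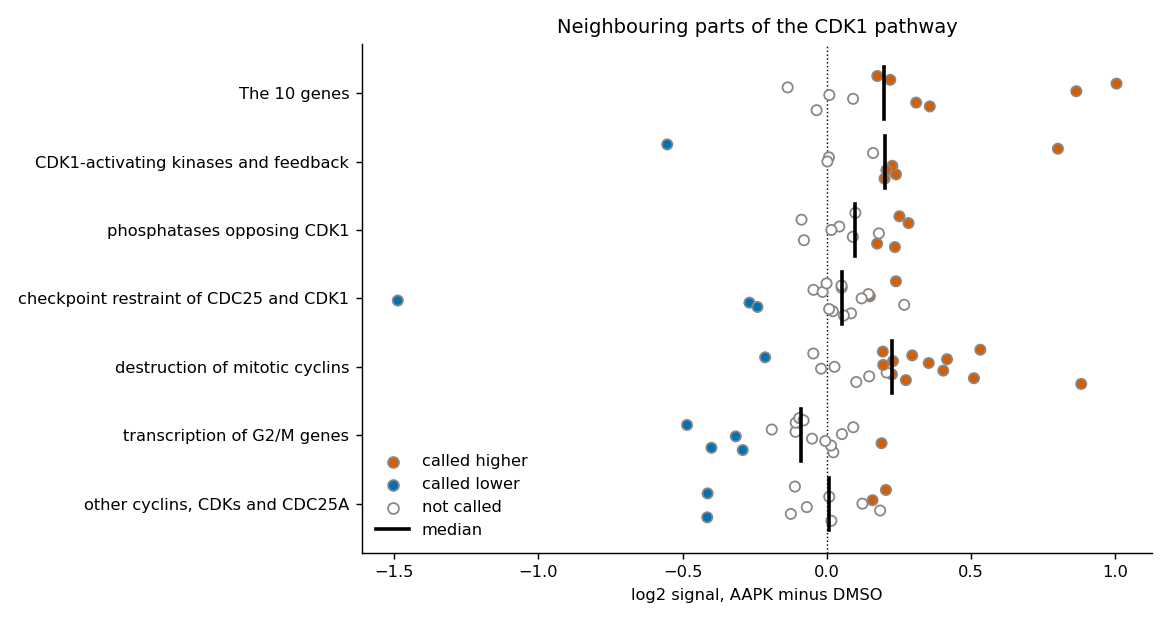
Log2 difference in signal, AAPK minus DMSO (x axis), for the 10 switch genes and for 6 neighbouring gene lists; each point is a gene, orange where called higher, blue where called lower and white where not called, and black bars are medians. The medians of the switch genes, the activating kinases and the cyclin destruction genes are 0.20, 0.20 and 0.23, and the transcription list has a median of -0.09.

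Across the 6 arrays, the profiles nearest to that of CCNB1, by Euclidean distance between profiles centred on their own means, were those of RBIS, KYNU, DLGAP5, DNAJA1 and C1GALT1C1. Their distances were 0.081 to 0.18, and their log2 changes ran from 0.80 to 0.92. The nearest of the other 9 switch genes was CKS2, at 0.23. For CDK1 the nearest were SWAP70, PIF1, XRCC6, C6orf62 and MORN2, at 0.026 to 0.037, while the nearest switch gene was CKS1B at 0.12.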

How the data were processed

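Total RNA was labelled with biotin by in vitro transcription, per the labels' protocols. The authors deposited log2 signal values for 49395 probe sets on 6 arrays; the log2 scale was read from the values (2.83 to 14.25), and the background correction, normalisation and summarisation come with no description (not given in the sources used here). Gene symbols came from the annotation table of the array platform: 44988 probe sets had 1 symbol, and 1832 naming several and 2473 naming none were left out, as were 102 controls. No member gene was named by a several-symbol probe set.

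Each gene was represented by its probe set with the highest mean signal. Groups were compared by lmFit and eBayes of limma (version 3.58.1, under R 4.3.3), with treatment as the sole factor and two-sided tests, and Benjamini-Hochberg adjustment over 18132 genes, and again over 44988 probe sets, at 0.05. The fits were tested on simulated data. The labels do not say whether replicates were separate cultures, so the p-values reflect only how far these samples vary, possibly for technical reasons; 3 arrays per group limit the precision. Same-numbered samples did not deviate together (r = 0.03, -0.20 and -0.03). No pairing by number was seen, though 3 arrays per group cannot exclude one.

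The 10 genes, the 6 lists and the tests were chosen with earlier results of these data known. By rule, the text names all 10 genes, AURKA, PLK1, the 2 largest called changes of each list and the 5 nearest profiles of CCNB1 and CDK1. Other genes are named because few passed or to say what a list holds, after their values were seen: BORA, CCNH, ARPP19, BUB1B, MAD2L1, FBXO5, PPP2R2B, PPP2CB, YWHAH, CHEK2, YWHAZ, FOXM1, LIN54, NFYC, CDC25A, CCND3, CCNB3 and CCNA1.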

Additional observations from a re-analysis of the deposited data

How the results depend on the processing

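Under 15 alternative settings CCNA2, CCNB1, CCNB2, CKS1B and CKS2 were called higher every time by limma. CDC25B, CDC25C and WEE1 were never called. CDK1 was called in 7 of 15; the call was lost with quantile normalisation, with the replicate block and without any of the 6 arrays (change 0.14 to 0.20), and the causes of the changes given here were not tested. Signal over background is unknown, so a limit for dim probe sets cannot be given.

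The count of member genes called lower was 1, PKMYT1, against 0, with quantile normalisation, after removal of genes below the 25th percentile of signal or below its median, with an intensity trend, with array weights and with a gene's probe sets averaged. Member probe sets called lower numbered 3 with quantile normalisation, 1 and 4 with the percentile and median filters, 3 with the trend, and 0 to 1 without single arrays (1 without AAPK replicate 1).

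Quantile normalisation left 1 checkpoint gene and 1 of the other cyclins and CDKs higher, and array weights made 4 other cyclins and CDKs lower. With a gene's probe sets averaged there were 1 phosphatase gene lower, 1 checkpoint gene higher and 0 other cyclins and CDKs higher; with the probe set of largest spread, 2 phosphatase genes lower and 0 transcription genes higher. Without single arrays the higher counts were 1 to 4 phosphatase, 1 to 2 checkpoint, 0 to 1 transcription and 0 to 2 other cyclin and CDK genes.

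With a gene's probe sets averaged the change of CKS2 exceeded that of CKS1B by 0.82, and that of CCNB1 exceeded that of CCNA2 by 0.37. With the probe set of largest spread, the differences were 0.24 for CCNB1 minus CCNA2, 0.18 for CDC25B minus CDC25C, 0.32 for WEE1 minus PKMYT1 and 0.58 for CCNB1 minus CDK1.

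Signs turned only for uncalled values near 0. Quantile normalisation gave CDC25B -0.0405, and -0.0241 on its second brightest probe set. Without single arrays CDC25B ran from -0.0458 to 0.0792 and CDC25C from -0.0735 to 0.0112. Across 3 dimmer CDC25B probe sets the ranges were -0.0346 to 0.0406, -0.0150 to 0.0861 and -0.0198 to 0.266, and the dimmest CDK1 probe set ran from -0.0135 to 0.0947.

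No pairing by replicate number was seen: 0 of 6 samples correlated best with their own number. With the replicate block 5 member genes were higher (CDK1 adjusted p = 0.0621, limma), as were 1 checkpoint, 0 transcription and 1 other cyclin and CDK gene, and 1116 of all genes were higher and 983 lower.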
